A study of Homo sapiens with 6 samples.

Results

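The matrix metalloproteinases (MMPs), the ADAM and ADAMTS proteases, the ADAMTS-like proteins and the tissue inhibitors of metalloproteinases (TIMPs) were followed in LX-2 cells given bone morphogenetic protein 9 (BMP9). Members were the genes whose symbol is MMP, ADAM, ADAMTS, ADAMTSL or TIMP followed only by a number and at most 1 letter, read from probe sets that the platform annotation gives to exactly 1 gene. This rule found 69 genes among the 18132 measured, with 177 of the 44988 single-gene probe sets. They were 22 MMP, 20 ADAM, 18 ADAMTS, 5 ADAMTSL and 4 TIMP genes. The rule uses names and no measured value.

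LX-2 is an established line of human hepatic stellate cells, the liver cells that deposit scar matrix once they turn into myofibroblasts. BMP9 is the ligand encoded by GDF2. All 6 cultures were kept without serum for 12 h; then 3 received 50 ng/ml recombinant human BMP9 and 3 received none (0 ng/ml, control) for a further 24 h. The series therefore shows 1 cell line at 1 dose and 1 time, each sample on 1 Affymetrix array. The labels call the samples biological replicates without saying how they were grown apart, so a p-value here rests on the scatter of these 6 samples alone, which may be technical.

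MMPs and ADAMTS proteases are zinc enzymes that are made as inactive precursors and cut collagens, proteoglycans and other matrix proteins outside the cell. Most ADAMs sit in the plasma membrane and release the outer parts of growth factors, cytokines and receptors, and some have no active site. TIMPs bind the active site of these enzymes and block it. In liver fibrosis the balance between MMPs and TIMPs made by stellate cells is held to set how fast scar collagen is removed.

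The arrays were alike. Their median log2 value lay between 3.55 and 3.57, and Pearson's r across genes was 0.993 to 0.995 within the groups and 0.991 to 0.993 between them. The table holds no detection calls. The 23 antigenomic control probe sets, whose probes match no human sequence, ranged from 1.67 to 10.0 in mean log2 value and rose with their content of G and C. A member's level therefore does not by itself show that its transcript was present, and levels of different genes are not compared here. Spiked control RNAs were lower on the BMP9 arrays, by 0.21 for the hybridisation controls and by 0.53 for the poly-A controls. Scaling to them adds these amounts to every difference and moves the median of all genes from 0.014 to 0.23 or 0.55. All values below are on the deposited scale, and each difference between -0.53 and 0 turns positive with poly-A scaling, as each between -0.21 and 0 does with hybridisation scaling.

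Of the 69 member genes, each read by its brightest probe set, 2 fell with BMP9 and 0 rose (limma, adjusted p under 0.05 over all 18132 genes). The genes that fell were MMP2, a gelatinase, and MMP14, the membrane-bound enzyme that activates the MMP2 precursor. This is 2.90% of the members, against 0.684% of all genes called in either direction, 0.232% called higher and 0.452% called lower. Of the 124 genes called in all, 42 were higher and 82 lower, a split of 33.9% to 66.1%. It became 98.5% to 1.46% with hybridisation scaling and 99.9% to 0.112% with poly-A scaling. At an unadjusted limma p under 0.05, 6 members stood out (12.9% of all genes did), 2 higher (6.89% of all genes) and 4 lower (5.98%). The groups did not overlap in 9 members (18.8% of all genes), of which 4 were higher with BMP9 (10.3% of all genes) and 5 lower (8.49%). The median log2 difference of the members was 0.014, the same as over all genes at this rounding. In whole cultures, fewer cells making a transcript and less transcript per cell cannot be told apart.

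**Figure D1:**
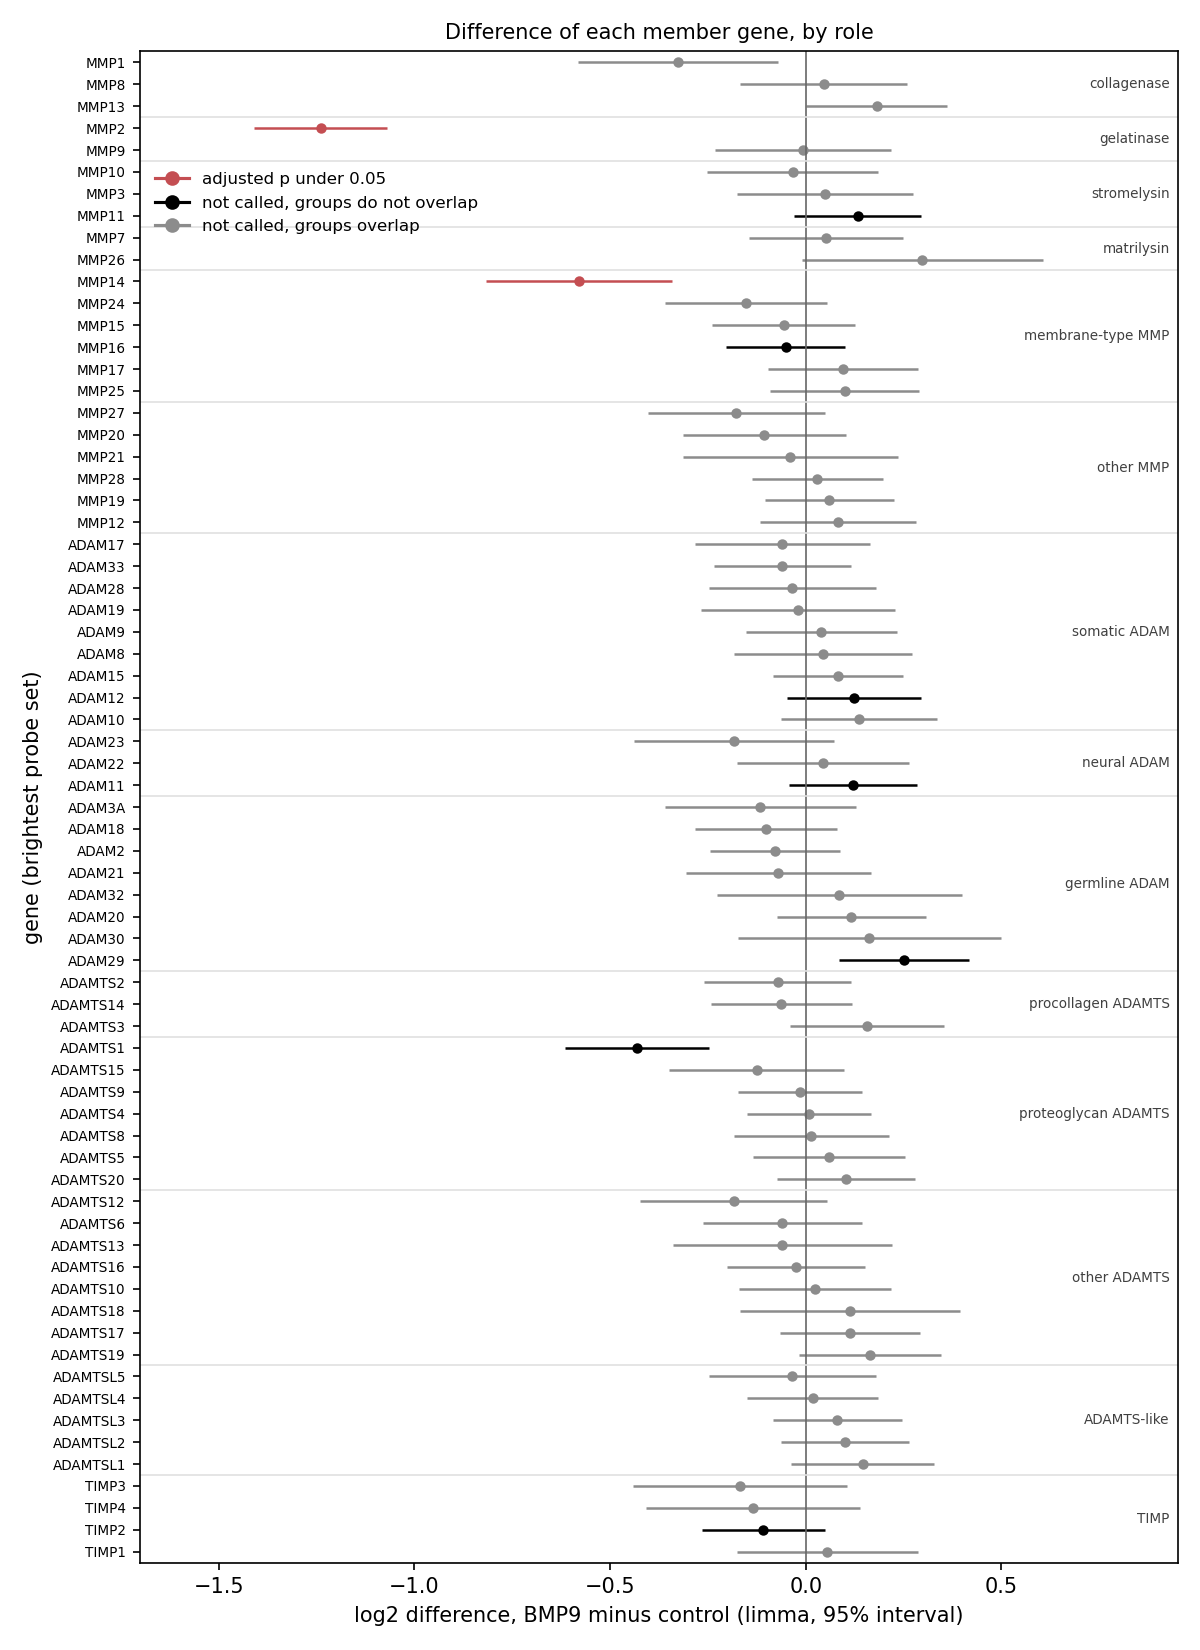
Log2 difference, BMP9 minus control, of each of the 69 genes on the deposited scale (points, with limma's 95% interval as lines), grouped by role, each gene read by its brightest probe set. MMP2 (-1.24) and MMP14 (-0.58) are the genes called, ADAMTS1 (-0.43) narrowly missed the threshold, and the other 66 lie between -0.33 and 0.30; with poly-A scaling every point moves up by 0.53, which turns all but MMP2 and MMP14 positive.

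Gelatinases cut denatured collagen and basement membrane collagen. The brightest MMP2 probe set (11745767_a_at) read 7.84, 7.77 and 7.83 on the control arrays and 6.58, 6.49 and 6.66 on the BMP9 arrays. Every BMP9 array lay more than 1 log2 unit below every control array. The mean went from 7.82 ± 0.037 to 6.58 ± 0.087 (SD, n = 3). This is a fall by 1.24 log2 units with an SE of 0.076, 2.36-fold on the linear scale (adjusted p = 2.79e-05 in limma). The fall was 1.03 with hybridisation scaling and 0.71 with poly-A scaling, and it passed with either.

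The remaining MMP2 probe sets did not show this fall. The next brightest (11743251_s_at) read 7.00, 7.21 and 7.09 in control and 6.67, 7.12 and 7.27 with BMP9. Its groups overlapped, and its BMP9 arrays held both the lowest and the highest of the 6 values. It differed by -0.08 (95% interval -0.39 to 0.22), which turns positive with either control scaling and, at 0.09, when BMP9 replicate 1 is left out. In Affymetrix naming, a suffix _a_at marks probes shared by transcripts of 1 gene and _s_at probes that can match transcripts of different genes. The platform annotation gives both of these probe sets to MMP2 alone, and which transcripts each reads was not tested. The difference between the 2 probe sets on the same array was 0.84, 0.56 and 0.75 in control and -0.08, -0.63 and -0.61 with BMP9, a change of -1.16 with no overlap between the groups. An exact two-sided permutation test gave p = 0.1, the smallest that 3 against 3 arrays allow. This pair, like that of MMP14 below, was taken because the gene was called on these same arrays. The p-value is therefore no independent evidence that the probe sets differ. The third and the fourth MMP2 probe sets were dim, at 3.10 and 2.44 in control, and differed by 0.09 and 0.10. Averaging the 4 probe sets ended the call of MMP2 (-0.28, limma adjusted p = 0.120), and over all its alternatives the adjusted p ran from 2.51e-07 to 0.120.

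MMP9, the other gelatinase gene, has 1 probe set. It read 4.82, 4.88 and 4.54 in control and 4.82, 4.64 and 4.76 with BMP9, with full overlap. It differed by -0.0076 (95% interval -0.23 to 0.22, limma adjusted p = 0.985), a value that turns positive with either control scaling.

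**Figure D2:**
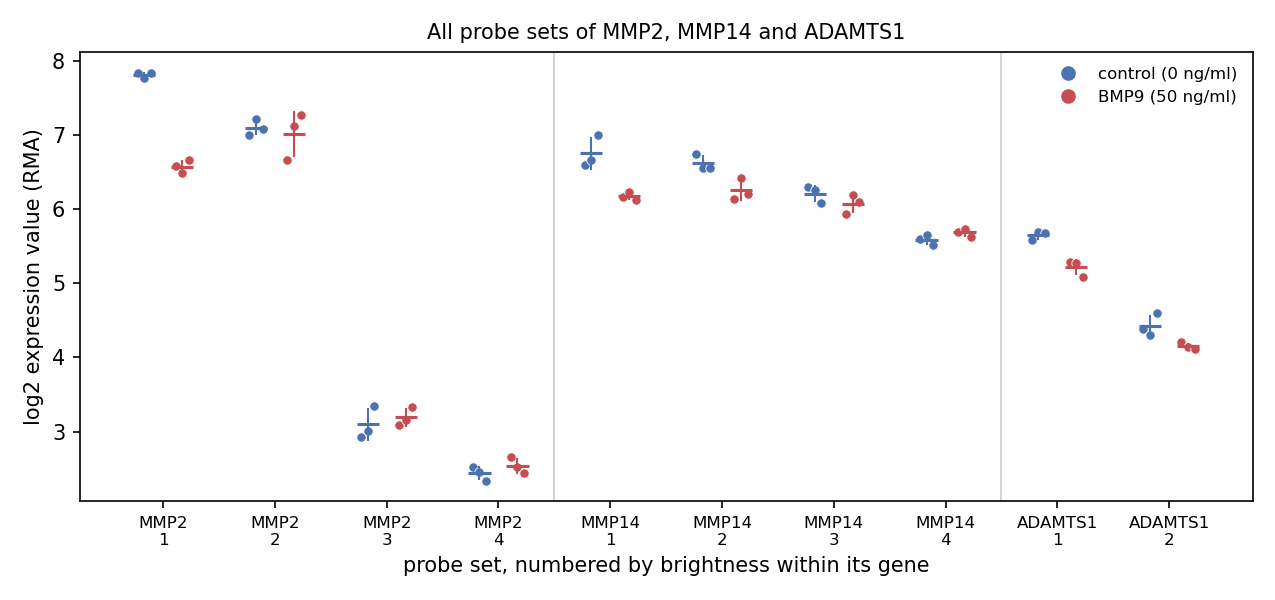
Log2 expression value (vertical axis) of every probe set of MMP2, MMP14 and ADAMTS1 on each array (points), with the group mean (bar) and SD (line), n = 3 per group, numbered by brightness within the gene. The brightest MMP2 probe set drops from 7.82 to 6.58 while the second stays near 7; in MMP14 the 2 brightest and in ADAMTS1 both probe sets have BMP9 arrays below all control arrays, an order that applies on the deposited scale and reverses in the mean with poly-A scaling for all of these but the brightest of MMP2 and of MMP14.

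Membrane-type MMPs are anchored at the cell surface. MMP14 (11747717_a_at) read 6.59, 6.67 and 7.00 in control and 6.16, 6.24 and 6.13 with BMP9. The groups were apart, with control replicate 3 the highest array. MMP14 went from 6.76 ± 0.22 to 6.18 ± 0.055 (SD, n = 3), a fall by 0.58 with an SE of 0.11 (1.49-fold, adjusted p = 0.0431 in limma). The call was lost without any single one of the 6 arrays (limma adjusted p 0.0593 to 0.175), when probe sets were averaged (-0.24, adjusted p = 0.163) and with poly-A scaling (-0.048, adjusted p = 0.778). Tested among all 44988 single-gene probe sets, the same probe set missed the threshold (limma adjusted p = 0.0531).

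The second MMP14 probe set (11725988_at) read 6.75, 6.55 and 6.56 in control and 6.13, 6.42 and 6.21 with BMP9. Its groups did not overlap either, and it differed by -0.37 (SE 0.098, limma adjusted p = 0.184), which turns positive with poly-A scaling. The third differed by -0.13 and the fourth by 0.10, both with overlapping groups. From the brightest to the dimmest, the MMP14 probe sets thus ran from -0.58 to 0.10, and the difference between the 2 brightest changed by -0.21 (exact two-sided permutation p = 0.3, smallest possible 0.1).

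The 250 bases before the start of MMP14, of TIMP1 and of MMP7 are shown because they stand for a called protease, a TIMP and the run of secreted MMP genes described next. They are RefSeq sequences of build GRCh38.p14, written 5′ to 3′ on the strand of the gene, at chr14:22836335-22836584 (plus strand), chrX:47582186-47582435 (plus strand) and chr11:102530748-102530997 (minus strand). Capitals mark matches to the motifs searched on both strands: the GC box GGGCGG, the TATA box TATAAA, the AP-1 site TGAGTCA and GGCGCC, a GC-rich element bound by BMP-activated SMADs.
MMP14: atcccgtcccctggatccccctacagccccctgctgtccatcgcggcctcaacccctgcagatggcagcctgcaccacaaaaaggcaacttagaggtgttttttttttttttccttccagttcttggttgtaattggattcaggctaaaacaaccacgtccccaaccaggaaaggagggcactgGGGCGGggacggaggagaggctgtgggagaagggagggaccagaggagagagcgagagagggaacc
TIMP1: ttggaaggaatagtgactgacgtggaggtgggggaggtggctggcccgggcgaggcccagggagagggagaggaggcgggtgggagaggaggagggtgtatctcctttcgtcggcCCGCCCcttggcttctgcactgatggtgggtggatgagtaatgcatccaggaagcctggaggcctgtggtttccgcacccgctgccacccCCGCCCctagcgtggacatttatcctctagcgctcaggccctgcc
MMP7: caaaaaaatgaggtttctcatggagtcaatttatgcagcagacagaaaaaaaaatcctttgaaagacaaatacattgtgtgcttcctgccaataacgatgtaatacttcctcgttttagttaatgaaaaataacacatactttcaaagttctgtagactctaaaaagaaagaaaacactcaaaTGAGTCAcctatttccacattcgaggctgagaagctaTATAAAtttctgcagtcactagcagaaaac

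The MMP14 window held 1 GC box and the TIMP1 window 2, with no match to the other motifs. The MMP7 window held a TATA box whose first base lies 30 bases before the start and an AP-1 site at 67 bases. Promoter entries were found for 42 of the 69 members, 43 windows in all. A GC box was in 28 of the 43 (65.1%, against 42.6% of all 35116 windows of this length), a TATA box in 8 (18.6%, against 10.7%), GGCGCC in 10 (23.3%, against 16.4%) and the AP-1 letters in 1 (2.33%, against 4.20%). These are matches of letters and no measure of binding.

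The other membrane-type genes, MMP15, MMP16, MMP17, MMP24 and MMP25, differed by -0.15 to 0.10 and none passed. MMP16 read 3.33, 3.32 and 3.33 in control and 3.27, 3.28 and 3.29 with BMP9, so its groups were apart by a difference of only -0.051 (limma adjusted p = 0.806). That value turns positive with either control scaling and when its probe sets are averaged. MMP14 was thus the 1 gene called among the 6 membrane-type genes, against 0.452% of all genes called lower, with the losses of that call given above.

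Among the secreted MMPs, 9 genes lie side by side with no other protein-coding gene between them in RefSeq's gene order (GRCh38.p14): MMP7, MMP20, MMP27, MMP8, MMP10, MMP1, MMP3, MMP12 and MMP13. Their differences ran from -0.33 (MMP1) to 0.18 (MMP13), and every one had overlapping groups (groups were apart in 18.8% of all genes). The mean levels of MMP20, MMP10, MMP1, MMP3 and MMP12 lay between 2.17 and 2.48. That is near the median of the antigenomic probe sets (2.36 to 2.43 over the arrays), so little can be read from these genes. Of the 5 with a promoter entry, 4 held a TATA box and 0 a GC box.

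The collagenases open the triple helix of fibrillar collagen. MMP1, the interstitial collagenase, read 2.77, 2.70 and 2.46 in control and 2.19, 2.55 and 2.22 with BMP9. BMP9 replicate 2 lay within the control range. MMP1 differed by -0.33 (95% interval -0.58 to -0.070, limma adjusted p = 0.278) and turns positive with poly-A scaling. Its values lay close to the median of the antigenomic probe sets, which was 2.36 to 2.43 over the arrays. MMP13 read 5.13, 5.26 and 5.13 in control and 5.24, 5.40 and 5.42 with BMP9, with 1 BMP9 array inside the control range. It differed by 0.18 (95% interval 0.0014 to 0.36, limma adjusted p = 0.385). Both were among the members with an unadjusted p under 0.05, MMP13 as 1 of the 2 higher. In the fit over all probe sets, the brightest MMP13 probe set had an unadjusted limma p of 0.0547 (95% interval -0.0043 to 0.37). The other MMP13 probe sets differed by -0.14, 0.22, -0.051 and 0.13, with groups apart only in the one at 0.22.

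Stromelysins degrade proteoglycans, laminin and fibronectin. MMP3 read 2.03, 2.20 and 2.21 in control and 2.06, 2.12 and 2.40 with BMP9, a difference of 0.048 (95% interval -0.18 to 0.27). The dimmer antigenomic controls also reached this level. MMP11, which furin activates inside the cell, read 7.03, 7.07 and 7.00 in control and 7.12, 7.14 and 7.24 with BMP9. Here all BMP9 arrays lay above all control arrays, by a difference of 0.13 (95% interval -0.030 to 0.30, limma adjusted p = 0.485). Its second probe set differed by 0.065. Of the 22 MMP genes, 11 had a positive and 11 a negative difference.

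The ADAM genes held no call: 0 of 20 passed (limma), with 1 at an unadjusted p under 0.05 (12.9% of all genes), and the median difference was 0.042. ADAM10, the main sheddase of Notch and of amyloid precursor protein, read 7.18, 7.10 and 7.08 in control and 7.41, 7.10 and 7.26 with BMP9. It differed by 0.14 (95% interval -0.064 to 0.34, limma adjusted p = 0.565), and its other 3 probe sets by 0.043 to 0.15. ADAM17, which releases tumour necrosis factor and ligands of the epidermal growth factor receptor, read 4.29, 4.13 and 4.14 in control and 4.28, 3.92 and 4.18 with BMP9. It differed by -0.060 (95% interval -0.28 to 0.16), positive with either control scaling and without BMP9 replicate 2. ADAM9, a membrane sheddase, differed by 0.040 (95% interval -0.15 to 0.23). The 95% intervals of these 3 sheddases reached no further than -0.28 and 0.34.

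ADAM12, a marker of activated mesenchymal cells, read 5.18, 5.26 and 5.24 in control and 5.36, 5.43 and 5.26 with BMP9. The lowest BMP9 array barely cleared the highest control array, at a difference of 0.12 (limma adjusted p = 0.536), and its brightest probe set without shared probes gave -0.049. The remaining ADAM12 probe sets differed by -0.0062 to 0.30, and in the one at 0.30 the groups were apart, with BMP9 higher (limma adjusted p = 0.297 over all probe sets). ADAM15 differed by 0.082 and ADAM33 by -0.059, the latter positive with either control scaling. ADAM11, expressed mainly in the nervous system and without an active site, read 5.18 to 5.30 in control and 5.36 to 5.42 with BMP9, a difference of 0.12 (limma adjusted p = 0.527). ADAM29, a testis gene, read 2.77, 2.85 and 2.79 in control and 3.02, 3.14 and 3.01 with BMP9. Its difference of 0.25 was the largest positive one among members with groups apart (SE 0.075, limma adjusted p = 0.196), at a level that the dimmer antigenomic controls also reached.

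**Figure D3:**
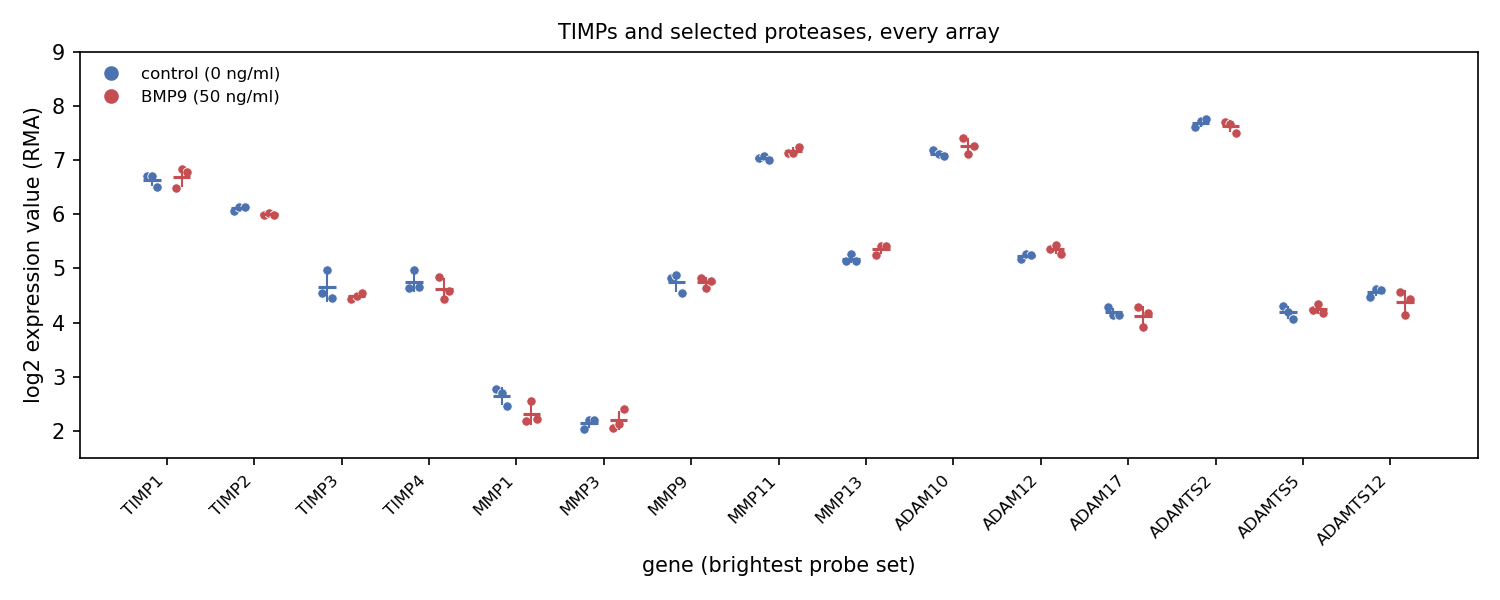
Log2 expression value (vertical axis) of the 4 TIMPs and 11 proteases on each array (points), with the group mean (bar) and SD (line), n = 3 per group, each gene read by its brightest probe set. The groups are apart only in TIMP2 (lower with BMP9 by 0.11, higher by 0.10 or 0.42 with the control scalings), MMP11 and ADAM12, and none of these 15 genes was called.

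Of the 18 ADAMTS genes 0 passed (limma), with 1 at an unadjusted p under 0.05 (12.9% of all genes). That gene was ADAMTS1, a secreted protease that cuts versican and aggrecan. Its brightest probe set (11754662_s_at) read 5.58, 5.69 and 5.68 in control and 5.29, 5.28 and 5.09 with BMP9, so the groups were well apart. ADAMTS1 differed by -0.43 (SE 0.083), from 5.65 ± 0.062 to 5.22 ± 0.11 (SD, n = 3, limma adjusted p = 0.0512). The second probe set (11732158_a_at) read 4.39, 4.31 and 4.60 in control and 4.20, 4.14 and 4.12 with BMP9, a difference of -0.28 with groups apart (limma adjusted p = 0.284). Both turn positive with poly-A scaling, at 0.10 and 0.26. ADAMTS1 passed under 4 of its 15 alternatives: a second quantile step, centring on the array median, a minimum mean level of 5 and an intensity trend with a robust prior (adjusted p 0.00887 to 0.0475 for these 4, and up to 0.552 over all 15).

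ADAMTS5, which lies next to ADAMTS1 in RefSeq's gene order and is a major aggrecanase, read 4.30, 4.20 and 4.06 in control and 4.23, 4.34 and 4.18 with BMP9. It differed by 0.060 (95% interval -0.13 to 0.25). The 7 genes of the proteoglycan-cutting group ran from -0.43 to 0.10. ADAMTS2, which removes the amino-terminal propeptide of fibrillar procollagens, read 7.60, 7.71 and 7.75 in control and 7.70, 7.67 and 7.49 with BMP9, a difference of -0.072 (95% interval -0.26 to 0.12) that turns positive with either control scaling and when its 2 probe sets are averaged. ADAMTS12, which cuts cartilage oligomeric matrix protein, differed by -0.18 (95% interval -0.42 to 0.055), with BMP9 replicate 2 lowest at 4.14; it too turns positive with either control scaling. The 5 ADAMTSL genes, secreted proteins related to ADAMTS but without the protease domain, differed by -0.034 to 0.15. Of these 0 passed (limma, 0.684% of all genes did), also at an unadjusted p under 0.05 (12.9% of all genes).

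Read by their brightest probe sets, none of the 4 TIMP genes passed (0.684% of all genes did), and 0 had an unadjusted limma p under 0.05 (12.9% of all genes). At these shares, 4 genes are too few for such counts to set the TIMPs apart from other genes. TIMP1, the inhibitor most tied to liver scarring, read 6.71, 6.70 and 6.51 in control and 6.48, 6.82 and 6.77 with BMP9. The groups overlapped fully, with a difference of 0.055 (95% interval -0.18 to 0.29, limma adjusted p = 0.867) that turned to -0.010 without BMP9 replicate 2 and to -0.011 without control replicate 3. Its second probe set (11715360_x_at) read 4.83, 5.17 and 5.14 in control and 5.69, 5.12 and 5.48 with BMP9. That difference of 0.39 was the largest positive one among the 177 probe sets, yet BMP9 replicate 2 lay below 2 control arrays and it did not pass among all probe sets (adjusted p = 0.338 in limma). The third differed by 0.20.

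TIMP2, which also bridges MMP14 and the MMP2 precursor at the cell surface, read 6.05, 6.13 and 6.14 in control and 5.98, 6.02 and 5.99 with BMP9. All BMP9 arrays were lower, by a difference of -0.11 (95% interval -0.27 to 0.048, limma adjusted p = 0.557), positive with either control scaling. TIMP3, which is held in the matrix and inhibits ADAM17, differed by -0.17 (95% interval -0.44 to 0.11), with control replicate 2 the highest array at 4.97. TIMP4 differed by -0.13 (95% interval -0.41 to 0.14). Both turn positive with either control scaling.

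Across probe sets, 1 of 177 was called, the brightest of MMP2, which is 0.565% against 0.436% of all 44988 single-gene probe sets, 0.133% higher and 0.302% lower. In 22 probe sets the groups did not overlap (12.4%, against 17.3% of all), with 10 higher (9.07% of all) and 12 lower (8.22% of all). An unadjusted p under 0.05 was reached by 16 (11.4% of all), 8 higher (5.7% of all) and 8 lower (5.67% of all). Of the 47 members with more than 1 probe set, 30 had probe sets of both signs. Leaving out MMP2, MMP14 and ADAMTS1, 63 of the remaining 66 genes and 152 of their 167 probe sets lay within 0.2 of zero on the log2 scale. For these 66 genes the median half-width of the 95% interval was 0.20, before any adjustment for the number of genes tested.

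**Figure D4:**
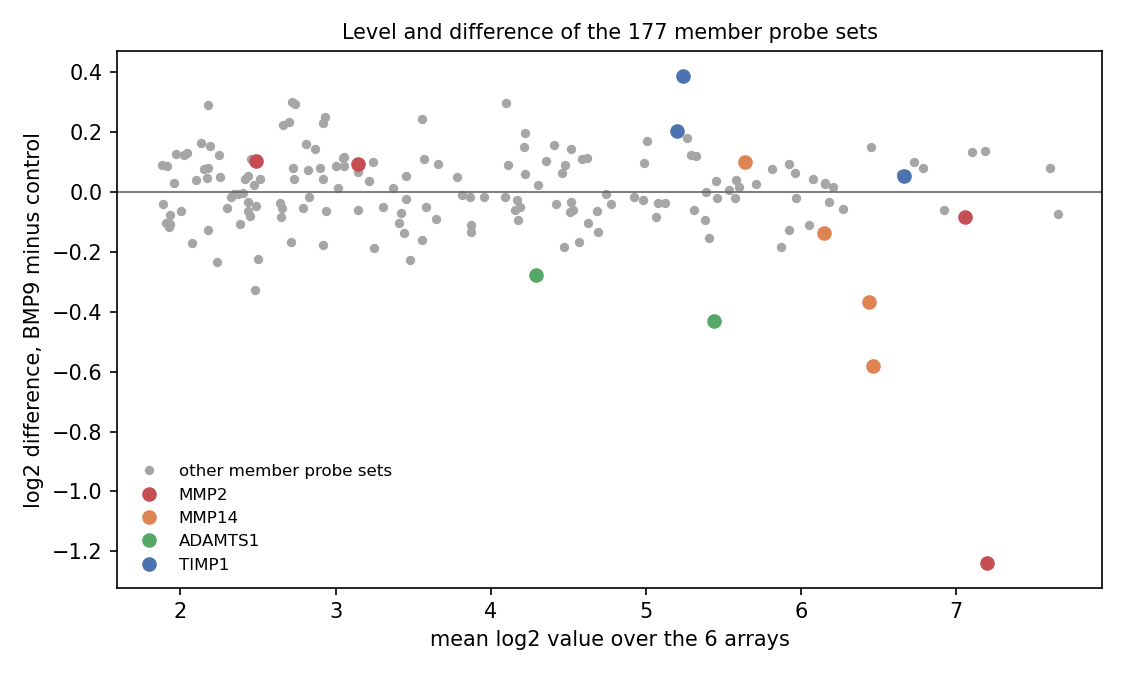
Mean log2 value over the 6 arrays (horizontal axis) against the log2 difference, BMP9 minus control (vertical axis), for the 177 probe sets, with those of 4 genes in colour. The probe sets furthest below zero belong to MMP2, MMP14 and ADAMTS1 at levels above 5, and the highest is one of TIMP1 at 0.39; poly-A scaling moves all points up by 0.53 and leaves only the brightest probe sets of MMP2 and MMP14 below zero.

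Other genes of the system were taken from lists written for this purpose. Among 19 activators and partners of these proteases 0 rose (0.232% of all genes) and 1 fell (0.452%), with a median difference of 0.063. The gene was PLAU, the urokinase that starts the plasmin cascade by which several MMP precursors are cut, which read 4.90, 4.77 and 4.88 in control and 4.46, 4.43 and 4.39 with BMP9. PLAU fell by 0.42 (SE 0.074, limma adjusted p = 0.0332), and turned to 0.11 with poly-A scaling. Its call was lost without any single array (adjusted p 0.0595 to 0.158), when its probe sets were averaged (adjusted p = 0.558) and with hybridisation scaling (adjusted p = 0.0927). TSPAN17, a tetraspanin that escorts ADAM10, differed by 0.26 with groups apart (limma adjusted p = 0.227). In this list the groups did not overlap in 10 of 19 genes (52.6%, against 18.8% of all genes), 6 higher (10.3% of all genes) and 4 lower (8.49%). In the lists described next the share was 11.1% (other inhibitors), 30% (astacin-type and other metalloproteases), 17.4% (sheddase substrates) and 27.8% (proteoglycan and collagen substrates). All these lists were chosen with earlier results of these data known, so such shares were not tested.

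Of 9 inhibitors other than TIMPs 0 passed (limma). An unadjusted limma p under 0.05 was reached by 3 (12.9% of all genes), 1 higher (6.89% of all genes) and 2 lower (5.98%). CST3, the cathepsin inhibitor cystatin C, differed by -0.30 and PAPLN, an ADAMTS inhibitor, by -0.25, both positive with poly-A scaling. Of 10 astacin-type and other metalloproteases 0 passed (limma, 1 at an unadjusted p under 0.05, against 12.9% of all genes). PAPPA, a protease of insulin-like growth factor binding proteins, differed by 0.37 with groups apart (limma adjusted p = 0.183) and by -0.078 in its brightest probe set without shared probes. BMP1, the procollagen C-proteinase, differed by -0.26 (limma adjusted p = 0.404), positive with poly-A scaling.

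Substrates were followed in a pair of lists. Of 23 sheddase substrates 0 passed (limma, 6 at an unadjusted p under 0.05, against 12.9% of all genes), with VCAM1, a leukocyte adhesion receptor, at 0.31 and APP, the amyloid precursor, at -0.28 (limma adjusted p = 0.119 and 0.122), the latter positive with poly-A scaling. Of 18 proteoglycan and collagen substrates 1 fell (0.452% of all genes). It was COL3A1, a fibrillar collagen gene, at 7.71, 7.80 and 7.69 in control and 6.44, 6.51 and 6.38 with BMP9, with groups far apart. It fell by 1.29 (SE 0.075, adjusted p = 2.35e-05 in limma) and passed with either control scaling. VCAN, the versican gene, read 7.76, 7.73 and 7.61 in control and 8.04, 7.93 and 8.07 with BMP9, a difference of 0.31 with groups apart (limma adjusted p = 0.135).

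Among 8 stellate cell markers, VIM read 11.6, COL1A1 9.73, COL1A2 7.54, LRAT, of vitamin A storage, 4.13 and ACTA2, the usual marker of activation, 3.90 in control. Of the 8, only VIM lay above the highest antigenomic control (10.0), a level that just 0.557% of all genes exceeded. The antigenomic controls with at most 17 G or C reached 4.08. VIM differed by -0.37 with groups apart (limma adjusted p = 0.0786), positive with poly-A scaling. Of the 8 markers 0 passed (limma), and 5 had a positive and 3 a negative difference. LRAT differed by 0.21, RGS5 by 0.18, ACTA2 by 0.13, COL1A2 by 0.10, COL1A1 by 0.052, PDGFRB by -0.0038 and DES by -0.017, all with overlapping groups. Of 24 markers of other liver cells (cholangiocytes, hepatocytes, leukocytes with macrophages, and endothelium) 0 passed (limma, 3 at an unadjusted p under 0.05, against 12.9% of all genes). The mean of each of these lists overlapped between the groups. In 3 of the 24 single markers the groups were apart, against 18.8% of all genes. These 3 are named here after their values were seen: EPCAM (0.34, limma adjusted p = 0.124), SERPINA1 (0.27, limma adjusted p = 0.336) and ALB (-0.22, limma adjusted p = 0.339, positive with poly-A scaling). EPCAM's mean level of 2.09 lay below the median of the antigenomic probe sets (2.36 to 2.43 over the arrays). The cholangiocyte list that holds it had 2 positive and 4 negative differences, and the hepatocyte list of SERPINA1 and ALB had 3 and 3. Mean levels of single markers ran from 2.80 to 5.73 in the hepatocyte list, 2.65 to 5.83 in the endothelial, 2.28 to 6.91 in the macrophage and leukocyte and 2.09 to 5.04 in the cholangiocyte list. The part of such cells in the results was not tested.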

How the data were processed

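Each of the 6 samples was hybridised to 1 Affymetrix 3′ expression array after amplification and biotin labelling, per the labels' protocols. The authors deposited 1 log2 value for each probe set and array. RMA is named in the submitters' processing notes; software and version were not given in the sources used here, and the log base was taken from the values. The number of arrays limits the precision.

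The table held 49395 probe sets, 102 of them controls, 44988 with 1 gene symbol, 1832 with several and 2473 with none. All 69 members matched a current gene by Entrez identifier and 0 symbols changed. No 2 arrays shared more than 0.00405% of their values. For a gene with several single-gene probe sets, the one brightest on average over the 6 arrays was taken, and every probe set was also tested on its own. Groups were compared in limma 3.58.1 under R 4.3.3 (lmFit and eBayes, no covariate), with Benjamini-Hochberg adjustment over all genes or all probe sets, a threshold of 0.05 and no filter on dim probe sets. The script was tested on simulated data. Group values are means ± SD over 3 arrays, and SEs and 95% intervals are limma's. Promoter sequences are RefSeq's (GRCh38.p14). Figures were drawn with matplotlib 3.10.9.

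The members and lists were chosen with earlier results of these data known. Named were members called, the largest differences in each direction among those with groups apart, all TIMPs, a fixed set of well-known proteases and the 6 with the brightest probe sets, and up to 2 genes of each other list with the smallest p. Alternatives were a second quantile step, a block for the replicate number, centring on the median, scaling to 18 hybridisation or 24 poly-A control probe sets, a minimum mean level of 5, an intensity trend with a robust prior, averaged probe sets, no probe sets ending in _s_at or _x_at, and each array left out.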

Additional observations from a re-analysis of the deposited data

How the results depend on the processing

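MMP2 kept its direction under all 15 alternatives and its call under 14, averaged probe sets being the exception. MMP14 kept its direction under all 15 and its call under 6. The replicate numbers, which the groups share, did not pair the arrays (correlation of deviations 0.0038, 0.046 and -0.021); with the replicate number as a block 1 member was lower, MMP14 (adjusted p 0.0670) and PLAU (0.0767) lost their calls, and 27 genes were higher in all.

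Against 124 genes called (42 higher, 82 lower), an intensity trend with a robust prior gave 285 (103, 182), a minimum level of 5 gave 267 (102, 165), hybridisation scaling 4915 (4843 higher), poly-A scaling 16912 (16893, 19) and leaving out an array 54 to 78 (17 to 24, 37 to 54). Against 196 probe sets called these gave 405, 426, 9703, 41797 and 81 to 129, and leaving out _s_at and _x_at probe sets 128. Against 1 member probe set called, centring gave 2, the trend 3, a minimum level of 5 gave 4, hybridisation scaling 40 (2 of them lower) and poly-A scaling 169. Against 2 member genes lower and 0 higher, averaged probe sets gave 0 lower, poly-A scaling 1 and 65 higher, hybridisation scaling 2 and 19 higher, every left-out array 1 lower, and the second quantile step, centring, the minimum level and the trend 3 lower each. The members' median of 0.014 became 0.23 and 0.55 with these scalings, -0.015 without _s_at and _x_at probe sets and -0.0048 to 0.023 with an array left out.

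With poly-A scaling, values turned to 0.47 (ADAM17), 0.47 (ADAM33), 0.10 (ADAMTS1), 0.35 (ADAMTS12), 0.46 (ADAMTS2), 0.21 (MMP1), 0.48 (MMP16), 0.52 (MMP9), 0.42 (TIMP2), 0.36 (TIMP3), 0.40 (TIMP4), 0.25 (APP), 0.28 (BMP1), 0.23 (CST3), 0.28 (PAPLN) and 0.11 (PLAU). With hybridisation scaling they turned to 0.15 (ADAM17), 0.15 (ADAM33), 0.028 (ADAMTS12), 0.14 (ADAMTS2), 0.16 (MMP16), 0.20 (MMP9), 0.10 (TIMP2), 0.044 (TIMP3) and 0.078 (TIMP4). Single probe sets turned to 0.17 (the second of MMP14), 0.40 (the third of MMP14), 0.45 (the second of MMP2), 0.26 and 0.10 (ADAMTS1) with poly-A scaling, and to 0.077 (the third of MMP14) and 0.13 (the second of MMP2) with hybridisation scaling. Averaged probe sets turned ADAM15 to -0.026, ADAMTS2 to 0.0028 and MMP16 to 0.0026, and leaving out _s_at and _x_at probe sets turned ADAM12 to -0.049 and PAPPA to -0.078.

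With an array left out, values ran from -0.11 to 0.059 (MMP9), -0.055 to 0.12 (MMP3), -0.14 to 0.043 (ADAM17), -0.021 to 0.095 (ADAM9), -0.0034 to 0.12 (ADAMTS5), -0.011 to 0.16 (TIMP1) and -0.21 to 0.091 (the second probe set of MMP2). Both control scalings add a shift to every gene by construction; the cause of the other changes was not tested.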
